A study of Homo sapiens with 12 samples.

Results

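The oxidative phosphorylation subunits were followed in 3 human intrahepatic cholangiocarcinoma (ICC) cell lines after knockdown of LKB1. The genes were chosen by symbol, as every row of the expression table that starts with NDUFA, NDUFB, NDUFC, NDUFS, NDUFV, UQCR, COX4, COX5, COX6, COX7, COX8 or ATP5 or that is SDHA, SDHB, SDHC or SDHD, leaving out NDUFAF, which names assembly factors. The rule, which uses symbols and no measured value, found 88 of the 18792 rows, and the group was picked with earlier results of these data known. Of these, 84 were listed as subunits of a complex, with 36 in complex I (7 catalytic and 29 accessory), 4 in complex II, 9 in complex III, 19 in complex IV and 16 in complex V. COX7A2L is listed with complex IV by its symbol. The remaining 4 were 2 symbols that match the prefix but name no subunit, ATP5S and ATP5SL, and 2 readthrough loci, NDUFC2-KCTD14 and ATP5J2-PTCD1. Several symbols have since changed, and ATP5C1, for example, is now ATP5F1C. RNA-seq was run on 12 libraries, 2 for each of the LKB1-specific siRNA and the scrambled control siRNA in HuH-28, RBE and SSP-25 cells, taken 48 h after transfection. Both arms were transfected with an siRNA, and untransfected cells were not analysed here. Each line is a single tumor-derived culture, and HuH-28 was grown in MEM while RBE and SSP-25 were grown in RPMI1640, so line and medium cannot be told apart where HuH-28 is compared with the other lines, which share a medium.

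Oxidative phosphorylation is carried out at the inner mitochondrial membrane. Complex I takes electrons from NADH and complex II takes them from succinate, complex III passes them to cytochrome c, and complex IV hands them to oxygen. The protons pumped on the way drive complex V, the ATP synthase, whose rotating central stalk couples proton flow to ATP synthesis. Most subunits are encoded in the nucleus, and the genes on mitochondrial DNA were not analysed here. LKB1, encoded by STK11, is a kinase that activates AMPK, a sensor of the energy state of the cell.

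Values are normalized reads per kilobase, in which a library summed to between 9909644 and 11726703. STK11 had 223 and 206 in the LKB1 siRNA libraries of HuH-28, against 698 and 600.4 with control siRNA. In RBE it had 130.0 and 156 with LKB1 siRNA and 485 and 429.8 with control siRNA, and in SSP-25 61.8 and 72.8 with LKB1 siRNA and 464 and 459 with control siRNA. STK11 was thus lower with LKB1 siRNA in each line, with log2 fold changes of -1.59 for HuH-28, -1.68 for RBE and -2.77 for SSP-25. Of 8 biliary epithelial markers, 4 reached a value of 20 in each arm of HuH-28, 7 did so for RBE and 6 for SSP-25. EPCAM averaged under 1 in both arms of HuH-28, and ONECUT1 did so in both arms of HuH-28 and of SSP-25. The 8 summed to between 12887 and 13632 with LKB1 siRNA and between 9459 and 10345 with control siRNA in HuH-28, to between 39292 and 39831 with LKB1 siRNA and between 47438 and 50992 with control siRNA in RBE, and to between 20363 and 21275 with LKB1 siRNA and between 15035 and 15307 with control siRNA in SSP-25. Of 8 hepatocyte markers, 1 reached 20 for HuH-28, 2 for RBE and 0 for SSP-25 in each arm, and APOB averaged under 1 in every group. Their sums were 1758 to 1761 with LKB1 siRNA and 1318 to 1458 with control siRNA in RBE, 144 to 195 with LKB1 siRNA and 149.96 to 178 with control siRNA in HuH-28, and at most 5.86 in SSP-25. A list of 10 leukocyte, endothelial and fibroblast markers summed to between 20753 and 21981 with LKB1 siRNA and between 17160 and 17584 with control siRNA in HuH-28. In SSP-25 it summed to between 12712 and 13125 with LKB1 siRNA and between 8550 and 8882 with control siRNA, and in RBE to at most 862, with CD3E and CDH5 under 1 in every group. Of the 10, 4 reached 20 in each arm of HuH-28 and 2 in each arm of RBE. In SSP-25, 4 did so with LKB1 siRNA and 3 with control siRNA. The part of these marker lists in the changes of the subunits was not tested. In HuH-28, replicate 2 lay above replicate 1 by a median of 0.18 on the log2 scale over the members with LKB1 siRNA and by 0.19 with control siRNA, whereas over all genes the medians were -0.01 and 0.0002. In the other 4 groups the median difference between replicates over the members ran from -0.05 to 0.02.

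Most subunits did not pass the test between LKB1 siRNA and control siRNA in any line, and a handful changed in every line. In HuH-28, 8 of the 87 members tested were higher and 4 lower with LKB1 siRNA, against 14.3% and 15.5% of all 16146 genes tested. RBE gave 10 higher and 9 lower members, where 22.1% and 18.6% of all genes passed. SSP-25 gave 1 higher and 13 lower, where 21.1% of all genes passed in each direction. A member or gene is called higher or lower when its adjusted p is under 0.05 in limma on log2(value + 0.5). In this fit, which has no block for the replicate, the share of members called was below that of all genes in each line. With a block within each line more members were called, as given below, and the share of all genes was not computed. The members had a median log2 fold change of 0.10 for HuH-28, 0.05 for RBE and -0.03 for SSP-25, beside 0.01, 0.01 and 0.02 over all genes. Averaged over the lines, 17 members were higher and 11 lower (all genes 27.3% and 25.2%), and 79 had an average log2 fold change within 0.3 of 0. In total 59 members passed in no line. The HuH-28 median ran from 0.0043 to 0.20 when single libraries were left out, beside the offset between its replicates given above. That offset had 1 direction in both arms (0.18 and 0.19), so leaving out 1 HuH-28 library puts part of it into the log2 fold change. With a block for the replicate within each line, the median stayed at 0.10. In bulk cultures, fewer cells of a kind and less RNA per cell cannot be told apart.

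**Figure D1:**
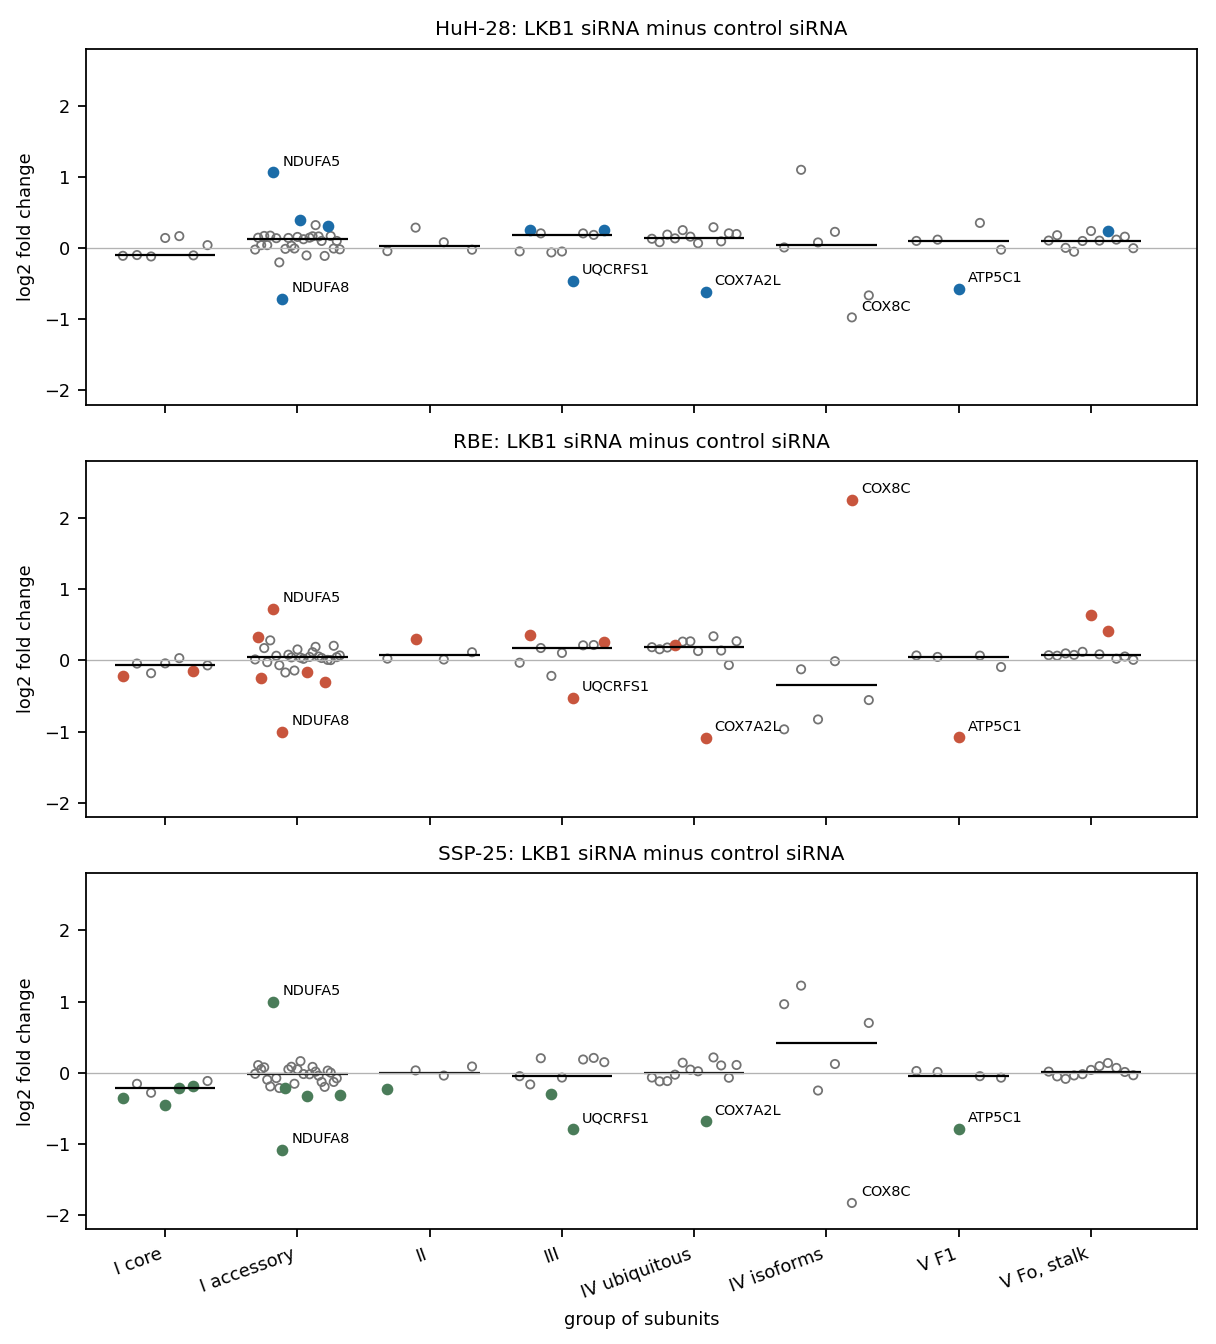
Log2 fold change (LKB1 siRNA minus control siRNA) of each tested subunit on the vertical axis, by group of subunits on the horizontal axis, with 1 panel for each line. Filled points have an adjusted p under 0.05, open points do not, and the black bar is the median of the group. Most points lie near 0, and NDUFA5 stands above while NDUFA8, UQCRFS1, COX7A2L and ATP5C1 stand below in each of the 3 panels.

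These counts depended on single libraries. The shares of all genes given above belong to the fit reported there. Shares under the other fits that follow were not computed, so their counts cannot be set beside those shares. In HuH-28 the 12 calls became 19 without control siRNA replicate 2 and 23 without LKB1 siRNA replicate 1. In RBE the 19 calls became 11 without control siRNA replicate 1, 12 without LKB1 siRNA replicate 1 and 11 without LKB1 siRNA replicate 2. In SSP-25 the 14 calls became 7 without control siRNA replicate 1 and 8 without LKB1 siRNA replicate 2. The lean of SSP-25 towards lower values changed with the fit and the scaling. A block for the replicate number within each line, which leaves 3 residual degrees of freedom, gave 10 higher and 19 lower there, 28 higher and 4 lower for HuH-28 and 23 higher and 11 lower for RBE, and SSP-25 fitted alone gave 9 higher and 20 lower. Quantile normalization of the libraries gave 4 higher and 10 lower and moved the median of the members to 0.03, and median-ratio scaling gave 3 higher and 12 lower. Calls that held in every fit without 1 library numbered 4 higher and 3 lower for HuH-28, 4 and 5 for RBE, and 1 and 6 for SSP-25. On average over the lines, 9 of the 17 higher calls and 10 of the 11 lower ones held. The 17 became 28 without HuH-28 LKB1 siRNA replicate 1, 10 without SSP-25 control siRNA replicate 1, and 11 without each of HuH-28 control siRNA replicate 1, RBE control siRNA replicate 2, RBE LKB1 siRNA replicate 1 and SSP-25 LKB1 siRNA replicate 1, and they were 11 with no filter on low values.

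Only 5 members passed the test in all 3 lines, each in 1 direction. NDUFA5 was higher (6.94% of all genes were higher in all 3 lines), and ATP5C1, COX7A2L, NDUFA8 and UQCRFS1 were lower (7.44% of all genes). They are spread over complexes I, III, IV and V. Counting instead the members whose libraries did not overlap between the 2 siRNAs in any of the 3 lines gave 6 higher (13.6% of all genes), NDUFA5 with ATP5J2, ATP5SL, NDUFB2, NDUFB6 and UQCRQ, and 8 lower (13.9% of all genes), the 4 above with NDUFB4, NDUFC1, NDUFS1 and NDUFV1.

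NDUFA5 encodes a small accessory subunit of the matrix arm of complex I. It had 270.2 and 407 with LKB1 siRNA in HuH-28, against 145 and 174 with control siRNA. RBE had 609.7 and 509.6 with LKB1 siRNA against 326 and 349 with control siRNA, and SSP-25 had 918 and 865 with LKB1 siRNA against 414 and 480.3 with control siRNA. Every LKB1 siRNA library was thus above both control libraries of its line. The log2 fold changes were 1.06 ± 0.17 for HuH-28, 0.72 ± 0.17 for RBE and 1.00 ± 0.17 for SSP-25 (SE, limma, n = 2 libraries a group), with adjusted p of 0.0015, 0.0078 and 0.0012 for the lines in that order. The SE here and below, and the p-values, use 1 spread per gene shared by all 12 libraries. The SD over members of the difference between replicates was 0.19 and 0.20 in the HuH-28 groups and 0.09 to 0.13 in the others. The RBE call was lost without control siRNA replicate 1 (log2 fold change 0.67, adjusted p 0.051) and without LKB1 siRNA replicate 1 (0.59, adjusted p 0.066). NDUFA5 was also the least abundant of the 77 subunits other than the isoforms of complex IV, with a mean of 315 over the 6 control libraries.

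NDUFA8 encodes an accessory subunit of complex I on the intermembrane space side, held by disulfide bonds. It had 958 and 1168 with LKB1 siRNA in HuH-28, against 1631 and 1854 with control siRNA. In RBE the values were 1215 and 1232 with LKB1 siRNA against 2521 and 2387 with control siRNA, and in SSP-25 1022 and 902 with LKB1 siRNA against 2087 and 1984 with control siRNA. In RBE and SSP-25 the log2 fold changes were -1.003 ± 0.10 (adjusted p 3.2e-05) and -1.08 ± 0.10 (adjusted p 2.0e-05), with -0.72 ± 0.10 in HuH-28 (adjusted p 5.3e-04). A difference between the lines did not pass the test for NDUFA8 (adjusted p 0.14).

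UQCRFS1 encodes the Rieske protein, the iron-sulfur subunit of complex III whose head swings from the ubiquinol site to cytochrome c1. It had 2046 and 2595 with LKB1 siRNA in HuH-28, against 2892 and 3461 with control siRNA. The values were 1553 and 1668 with LKB1 siRNA against 2337 and 2286 with control siRNA in RBE and 1299.8 and 1274 with LKB1 siRNA against 2304 and 2143 with control siRNA in SSP-25. Log2 fold changes were -0.46 ± 0.11 for HuH-28, -0.52 ± 0.11 for RBE and -0.79 ± 0.11 for SSP-25, with adjusted p of 0.012, 0.004 and 3.2e-04 for the lines in that order in limma. The HuH-28 call was lost without control siRNA replicate 2 (log2 fold change -0.33, adjusted p 0.079) and without LKB1 siRNA replicate 1 (-0.29, adjusted p 0.065).

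COX7A2L, listed by its symbol with complex IV, encodes the protein that tethers complexes III and IV in supercomplexes. It had 1400.2 and 1524 with LKB1 siRNA in HuH-28, against 2096 and 2388 with control siRNA. In RBE it had 1389 and 1407 with LKB1 siRNA against 2972 and 2986 with control siRNA, and in SSP-25 2450.2 and 2510.2 with LKB1 siRNA against 3999 and 3951 with control siRNA. The fall was largest in RBE, at -1.09 ± 0.07 log2, next to -0.61 ± 0.07 for HuH-28 and -0.68 ± 0.07 for SSP-25 (adjusted p 1.4e-06 for RBE, 1.1e-04 for HuH-28 and 2.7e-05 for SSP-25). The test of a difference between the lines passed (adjusted p 0.0084). Its paralog COX7A2, a true subunit of complex IV, had 6379.5 and 6692 with LKB1 siRNA and 6219.5 and 5726 with control siRNA in RBE, so the ratio of COX7A2L to COX7A2 in RBE was 0.21 to 0.22 with LKB1 siRNA and 0.48 to 0.52 with control siRNA. With LKB1 siRNA the same ratio was 0.47 to 0.48 in HuH-28, against 0.73 to 0.79 with control siRNA, and in SSP-25 it was 0.56 to 0.61 with LKB1 siRNA against 0.94 to 0.96 with control siRNA.

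ATP5C1 encodes the gamma subunit, the shaft of the rotating central stalk of complex V. It had 2487 and 2790.0 with LKB1 siRNA in HuH-28, against 3724 and 4137 with control siRNA. The values were 3561 and 3405 with LKB1 siRNA against 7579 and 7148 with control siRNA in RBE and 3252 and 3068 with LKB1 siRNA against 5469 and 5418 with control siRNA in SSP-25. With log2 fold changes of -0.58 ± 0.07 for HuH-28, -1.08 ± 0.07 for RBE and -0.79 ± 0.07 for SSP-25 (adjusted p 3.4e-04, 3.1e-06 and 2.3e-05 for the lines in that order), it fell most in RBE, and the lines differed (adjusted p 0.016), a call that was lost without RBE control siRNA replicate 1 or RBE LKB1 siRNA replicate 2. None of the other 4 genes of the F1 part was lower in any line. The ratio of ATP5C1 to ATP5B, the catalytic beta subunit, was 0.15 to 0.16 with LKB1 siRNA and 0.32 to 0.34 with control siRNA in RBE, while that of ATP5A1, the alpha subunit, to ATP5B was 0.33 to 0.34 with LKB1 siRNA and 0.33 to 0.34 with control siRNA.

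**Figure D2:**
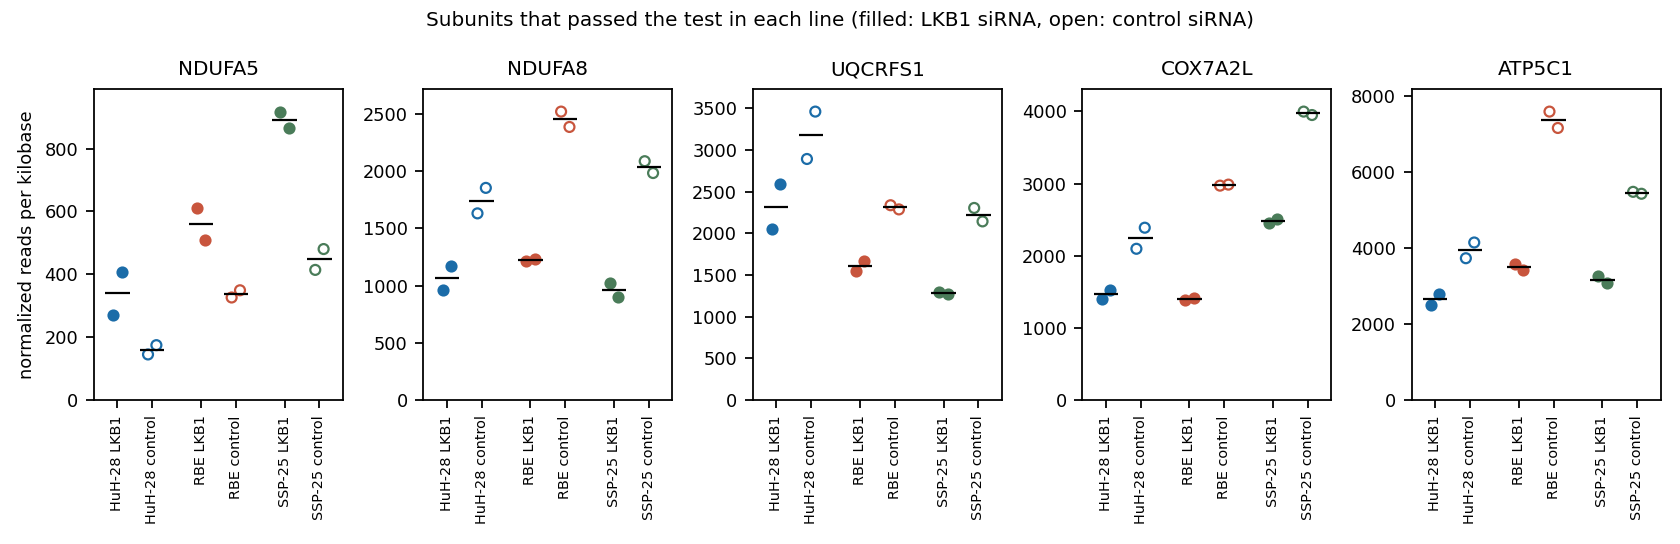
Normalized reads per kilobase on the vertical axis for the 5 members that passed the test in all 3 lines, with filled points for the 2 LKB1 siRNA libraries and open points for the 2 control siRNA libraries of each line, and a bar at their mean. NDUFA5 lies higher with LKB1 siRNA in each line and the other 4 lie lower, with no overlap of the 2 siRNAs within a line.

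The promoters of these genes were read for a word bound by NRF1 (nuclear respiratory factor 1), a transcription factor known to drive many nuclear genes of the respiratory chain. The word searched was GCGCA and GCGC with any 1 base between them, on both strands of the 300 bases round each start (RefSeq, GRCh38.p14), and 9.81% of 12808 promoters of tested genes and 22.7% of 66 promoters of subunits hold it. NDUFA8, UQCRFS1 and ATP5C1 hold it and NDUFA5 and COX7A2L do not. Among subunits with a promoter sequence, it stands in 6 of the 11 that were lower on average over the lines (all genes lower on average 13.9%), in 2 of the 11 that were higher (8.67%) and in 7 of the 44 not called (8.20%). The 6 are ATP5C1, NDUFA8, NDUFA9, NDUFB4, UQCRC1 and UQCRFS1, of which NDUFA9 lost its average call without RBE control siRNA replicate 2 or SSP-25 LKB1 siRNA replicate 1. A window of 30 bases round the match is shown, as the stretch that holds the word in each of these 6 lower genes, 5′ to 3′ on the gene's strand with the matched word in capitals.
ATP5C1, chr10:7788145-7788174, plus strand: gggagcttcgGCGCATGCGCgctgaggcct
NDUFA8, chr9:122159764-122159793, minus strand: gttgccggatGCGCATGCGCaggcgccgtg
UQCRFS1, chr19:29213163-29213192, minus strand: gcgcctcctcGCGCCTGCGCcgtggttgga
NDUFA9, chr12:4649024-4649053, plus strand: ttcttggttaGCGCTTGCGCagacaggcga
NDUFB4, chr3:120596167-120596196, plus strand: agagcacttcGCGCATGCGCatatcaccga
UQCRC1, chr3:48609674-48609703, minus strand: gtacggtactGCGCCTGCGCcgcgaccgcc
In NDUFB4 the word occurs at 3 places and in NDUFA8 at 2 overlapping ones, of which 1 is shown for each. A match describes the letters only. NRF1 itself, named here after its values were seen, had 109 and 111 with LKB1 siRNA and 138 and 143 with control siRNA in HuH-28. The LKB1 siRNA libraries of RBE gave 112 and 126 against 157 and 141 in its controls, and those of SSP-25 gave 136 and 150.0 with LKB1 siRNA against 187 and 194 with control siRNA. Its log2 fold changes were -0.35 for HuH-28, -0.32 for RBE and -0.41 for SSP-25, each with an adjusted p under 0.05. Whether it has a part in the changes of the subunits was not tested. The ETS word CCGGAAG, bound by GABPA, stood in 28.8% of the 66 promoters of subunits and 16.1% of those of all genes. It was in 6 of the 11 higher subunits (all genes higher on average 15.1%), 1 of the 11 lower ones (21.0%) and 12 of the 44 not called. Of the 6, ATP5I lost its average call without any 1 library except HuH-28 control siRNA replicate 2 and HuH-28 LKB1 siRNA replicate 1, and COX6A1 and COX6B1 without any 1 except those and RBE control siRNA replicate 1. The word AAGATGGCG, bound by YY1 and also searched, stood in 12.1% of the promoters of subunits and 3.24% of those of all genes. It was in 1 of the 11 higher subunits (all genes higher on average 3.39%), 3 of the 11 lower ones (3.97%) and 4 of the 44 not called (2.74%). The levels of GABPA and YY1 themselves are not given here, so NRF1 is the only 1 of the 3 factors with values.

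The 3′ UTRs were read for 3 words that went with the direction of change over all genes of this table in an earlier look at the same libraries, so they are not independent of these data. In the longest 3′ UTR of each gene (GENCODE v29), genes with GCAGTAC had a median average log2 fold change of 0.27 (784 genes) and those without it 0.02, genes with CAGTACA, which overlaps the first word, had 0.13 (1369 genes) and those without it 0.02, and genes with GAAGGAA had -0.02 (3290 genes) and those without it 0.04. Subunits have short 3′ UTRs, with a median of 413 bases against 1223 over all genes, and of 83 subunits 4 hold GCAGTAC, 3 hold CAGTACA and 10 hold GAAGGAA, beside 4.96%, 8.67% and 20.8% of all genes. Of the 4 with GCAGTAC, NDUFA10, NDUFA5 and NDUFB2 were higher on average, while NDUFV3, which holds it at 3 sites, had -0.09 and did not pass on average and was lower in SSP-25 (-0.31). Over all genes, 9.52% of those higher and 2.90% of those lower hold this word. The 3 with CAGTACA were NDUFA10, higher on average, NDUFA9, lower, and NDUFV3, so they had no shared direction. GAAGGAA stands in 5 of the 11 subunits that were lower (ATP5C1, COX7A2L, NDUFA9, NDUFB4 and NDUFS1) in 2 of the 15 that were higher, NDUFA5 and UQCRB, and in 3 of the 57 not called, beside 26.9%, 19.0% and 18.6% of all genes. UQCRB lost its average call without HuH-28 control siRNA replicate 1, RBE control siRNA replicate 2, SSP-25 LKB1 siRNA replicate 2, either LKB1 siRNA library of RBE or either control library of SSP-25. The sites in the members that passed in every line are shown, with the word in capitals.
NDUFA5, chromosome 7, GCAGTAC: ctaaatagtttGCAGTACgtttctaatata
NDUFA5, chromosome 7, GAAGGAA: gttatcctgaaGAAGGAAaggtccttaatt
ATP5C1, chromosome 10, GAAGGAA: caagaggtaaaGAAGGAAaattcagccagt
COX7A2L, chromosome 2, GAAGGAA: ttattatatatGAAGGAAtagtttgtatct
NDUFA5 holds both words in a 3′ UTR of 5122 bases, while ATP5C1 holds GAAGGAA in only 187 bases. NDUFA8 and UQCRFS1 hold neither word.

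In complex I, the largest of the complexes, all 7 genes of the catalytic core had a negative log2 fold change in SSP-25, with a median of -0.22. The median over all genes was 0.02 there, and the share of all genes with a negative sign is not given here. Quantile normalization of the libraries moved the SSP-25 median of all members from -0.03 to 0.03, and the signs of these 7 under it are not given. Of the 7, 4 were lower (all genes 21.1%), NDUFS1, NDUFS7, NDUFS8 and NDUFV1. NDUFV1 holds the FMN that accepts electrons from NADH, and the other 3 carry iron-sulfur clusters along the electron path. NDUFS1 had 811 and 836 with LKB1 siRNA in SSP-25, against 1071 and 1038 with control siRNA, a log2 fold change of -0.36 ± 0.04 (adjusted p 1.5e-04). NDUFS7, which bears the last cluster before ubiquinone, had 554 and 522 with LKB1 siRNA against 779 and 698 with control siRNA there, a log2 fold change of -0.45 ± 0.12 (adjusted p 0.011). Of these 4, NDUFS1 kept its call in every fit without 1 library, while NDUFS7, NDUFS8 and NDUFV1 each lost it without control siRNA replicate 1 or LKB1 siRNA replicate 2, and NDUFS8 and NDUFV1 also without control siRNA replicate 2. NDUFS8 lost it too without either LKB1 siRNA library of RBE. In RBE, NDUFS1 (-0.23) and NDUFV1 (-0.15) were lower among the 7 (all genes 18.6%), with a median of -0.07, and the HuH-28 median was -0.10. NDUFV1 lost its call in RBE without any 1 library of RBE or SSP-25.

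Among the 29 accessory subunits of complex I, HuH-28 had 3 higher and 1 lower (all genes 14.3% and 15.5%), RBE had 2 and 4 (22.1% and 18.6%), and SSP-25 had 1 and 4 (21.1% each), so each share of these 29 was below that of all genes in the fit without a block. In HuH-28 the higher ones besides NDUFA5 were NDUFB2 and NDUFC2. NDUFB2, a membrane arm subunit, had 2431 and 3039.6 with LKB1 siRNA in HuH-28, against 1929 and 2235 with control siRNA, a log2 fold change of 0.39 ± 0.10 (adjusted p 0.016) that was lost without control siRNA replicate 1 or LKB1 siRNA replicate 2. NDUFC2 shares its exons with the readthrough locus NDUFC2-KCTD14, whose value was 0.73 to 0.84 of that of NDUFC2 in every library, so their reads cannot be told apart. The locus had 1400.0 and 1361 with LKB1 siRNA in HuH-28, against 1075 and 1096 with control siRNA, while in RBE and SSP-25 the 2 siRNAs overlapped. The higher accessory subunit in RBE besides NDUFA5 was NDUFA10, and those lower in RBE or SSP-25 besides NDUFA8 were NDUFA12, NDUFB4 and NDUFC1 in RBE and NDUFA9, NDUFB4 and NDUFV3 in SSP-25. NDUFB4 was thus lower in both lines (-0.16 and -0.33) and had -0.11 in HuH-28, where it did not pass. Of these calls in RBE and SSP-25, those of NDUFA10 in RBE and NDUFB4 in SSP-25 held in every fit without 1 library, while NDUFB4 in RBE was lost without control siRNA replicate 1 or either LKB1 siRNA library. NDUFA9 and NDUFV3 were lost without any 1 library of SSP-25. NDUFA12 was lost without any 1 library of RBE, and NDUFC1 without RBE control siRNA replicates 1 or 2 or LKB1 siRNA replicate 2, and both also without either LKB1 siRNA library of SSP-25, which share the estimate of spread. NDUFC2 lost its call in HuH-28 without control siRNA replicate 1 or LKB1 siRNA replicate 2. NDUFS5, the most abundant gene of complex I with a mean of 6665 in the control libraries, did not pass in any line.

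In complex II, 1 gene was lower in SSP-25 (all genes 21.1%) and 1 higher in RBE (all genes 22.1%). SDHA, the flavoprotein, had 2399.9 and 2221 with LKB1 siRNA in SSP-25, against 2724 and 2659 with control siRNA, a log2 fold change of -0.22 ± 0.07 (adjusted p 0.032). SDHB, the iron-sulfur subunit, was higher in RBE, with 1249.6 and 1348 with LKB1 siRNA against 1083 and 1017 with control siRNA and a log2 fold change of 0.31 ± 0.10 (adjusted p 0.031). Both calls were lost when 1 library of the line was left out (any of the 4 for SDHB, 3 of the 4 for SDHA). SDHC and SDHD, which anchor the enzyme in the membrane, did not pass in any line and had log2 fold changes between -0.04 and 0.11.

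In complex III, UQCRFS1 fell alone among the 9 genes in HuH-28 and RBE (all genes lower 15.5% and 18.6%), while 2 small subunits rose (all genes higher 14.3% and 22.1%). UQCRQ had 1575 and 1729 with LKB1 siRNA and 1351 and 1417 with control siRNA in HuH-28, and 1733 and 1759 with LKB1 siRNA and 1504 and 1421 with control siRNA in RBE. Its log2 fold changes were 0.25 ± 0.06 (adjusted p 0.0093) and 0.26 ± 0.06 (adjusted p 0.0061), with 0.15 in SSP-25, where it missed the threshold (adjusted p 0.068). UQCR11 was higher in HuH-28 (0.25) and RBE (0.35) but had 1040.2 and 1005 with LKB1 siRNA and 1114 and 1178 with control siRNA in SSP-25, on the opposite side. Single libraries decided some of these calls. UQCRQ lost its call in HuH-28 without control siRNA replicate 1 or LKB1 siRNA replicate 2 and in RBE without control siRNA replicate 2, and UQCR11 lost its call in HuH-28 without either control library or LKB1 siRNA replicate 2. UQCRC1, 1 of the 2 core proteins, was lower in SSP-25 (-0.29, adjusted p 0.015), a call lost without control siRNA replicate 1 or LKB1 siRNA replicate 2. UQCRH, the hinge protein and the most abundant gene of the complex, and UQCRHL, a near-identical copy, kept a ratio of 0.63 to 0.69 in every library, so their reads cannot be told apart. UQCRH had log2 fold changes of 0.20 for HuH-28, 0.21 for RBE and 0.19 for SSP-25 and did not pass in any line.

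Of the 12 genes listed as ubiquitous subunits of complex IV, only COX7A2L, the tether of complexes III and IV, was lower, and it was so in each line. COX6A1 was higher in RBE, with 12812 and 12651 with LKB1 siRNA and 11470.1 and 10406 with control siRNA (log2 fold change 0.22 ± 0.06, adjusted p 0.021), a call lost without control siRNA replicate 2 or either LKB1 siRNA library. The 12 had a median log2 fold change of 0.15 for HuH-28, 0.18 for RBE and -0.0031 for SSP-25. Averaged over the lines 4 were higher (all genes 27.3%), COX6A1, COX6B1, COX7B and NDUFA4, and each of the 4 lost that call without some single library. COX7B, with the largest average rise among them (0.28 ± 0.10, adjusted p 0.039), passed in no line alone. COX7C, the most abundant gene of the complex, had log2 fold changes of 0.09 for HuH-28, 0.14 for RBE and 0.10 for SSP-25 and passed nowhere.

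Complex V outside ATP5C1 showed rises in 2 small membrane subunits (all genes higher 14.3% in HuH-28 and 22.1% in RBE). ATP5J2, the f subunit, had 3837 and 3988 with LKB1 siRNA and 3176 and 3442 with control siRNA in HuH-28, and 6120.2 and 6074 with LKB1 siRNA and 4666 and 4521 with control siRNA in RBE. The log2 fold changes were 0.24 ± 0.05 (adjusted p 0.0083) and 0.41 ± 0.05 (adjusted p 2.4e-04), with 0.14 in SSP-25 (adjusted p 0.071), and its libraries did not overlap in any line. ATP5J2-PTCD1, the readthrough locus over it, did not pass in any line, and its share of the ATP5J2 value was 0.073 to 0.077 with LKB1 siRNA and 0.10 to 0.11 with control siRNA in RBE. ATP5I, the e subunit that helps ATP synthase dimers form, was higher in RBE, with 4815 and 4952 with LKB1 siRNA against 3313 and 2964 with control siRNA (log2 fold change 0.64 ± 0.20, adjusted p 0.028), a call that leaving out any 1 library of RBE ended. ATP5B, the most abundant of all members with a mean of 15359 in the control libraries, had log2 fold changes of 0.12 for HuH-28, 0.05 for RBE and 0.01 for SSP-25 and did not pass. Nor did the genes of the c subunit of the rotor ring, ATP5G1, ATP5G2 and ATP5G3, in any line. ATP5SL, which matches the prefix but encodes no subunit, was higher in HuH-28 and RBE (0.39 and 0.39). ATP5L2, listed with complex V, had 0.26 to 0.33 of the value of ATP5L in every library, so their reads may be shared.

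The change with LKB1 siRNA differed between the lines for 7 members, where 28.2% of all genes passed this test. COX7A2L and ATP5C1 differed in size only. UQCR11 and NDUFC2-KCTD14 were higher in HuH-28, while in SSP-25 they had log2 fold changes of -0.16 and -0.05, and NDUFC2-KCTD14 had 0.04 in RBE. NDUFS1 had -0.11 in HuH-28, where it did not pass, and was lower in RBE (-0.23) and SSP-25 (-0.36), and NDUFS8 had 0.17 in HuH-28 and -0.22 in SSP-25. COX8C, the seventh, was barely present and was called higher in RBE, with 1.87 and 1.95 with LKB1 siRNA and 0 and 0.0112 with control siRNA in RBE, a call lost without any 1 library of RBE. The count became 15 without HuH-28 LKB1 siRNA replicate 1, 3 without RBE LKB1 siRNA replicate 2, and 4 without each of RBE control siRNA replicates 1 and 2, RBE LKB1 siRNA replicate 1, SSP-25 control siRNA replicate 2 and SSP-25 LKB1 siRNA replicate 1. COX7A2L, NDUFC2-KCTD14 and UQCR11 kept the call in every one of these fits.

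Differences between the lines themselves were read in the control siRNA libraries. The subunits are abundant transcripts in all 3, with a median of 1885 over the members against 165 over all genes tested, and 58 of the 87 stood in the top 10% of genes. Their order of abundance was similar in each pair of lines (Spearman's rho 0.82 to 0.84 over 77 subunits, across genes that share each library). HuH-28 had 22 members higher and 42 lower than RBE (all genes 39.2% and 38.1%), and 24 higher and 36 lower than SSP-25 (38.0% and 36.8%). RBE had 36 higher and 21 lower than SSP-25 (35.9% and 37.2%). The median log2 difference over the members was -0.28 for HuH-28 minus RBE, -0.11 for HuH-28 minus SSP-25 and 0.16 for RBE minus SSP-25, beside 0.01, 0.004 and -0.003 over all genes. Against both other lines at once, HuH-28 was lower for 28 members and higher for 13 (22.9% and 25.4% of all genes), RBE was higher for 24 and lower for 12 (23.0% and 22.8%), and SSP-25 was higher for 13 and lower for 13 (20.3% and 18.2%). The members higher in HuH-28 include COX7B2 in each of these counts, which passed the filter on low values through HuH-28 alone. Of the 24 higher in RBE, 9 belong to complex IV.

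**Figure D3:**
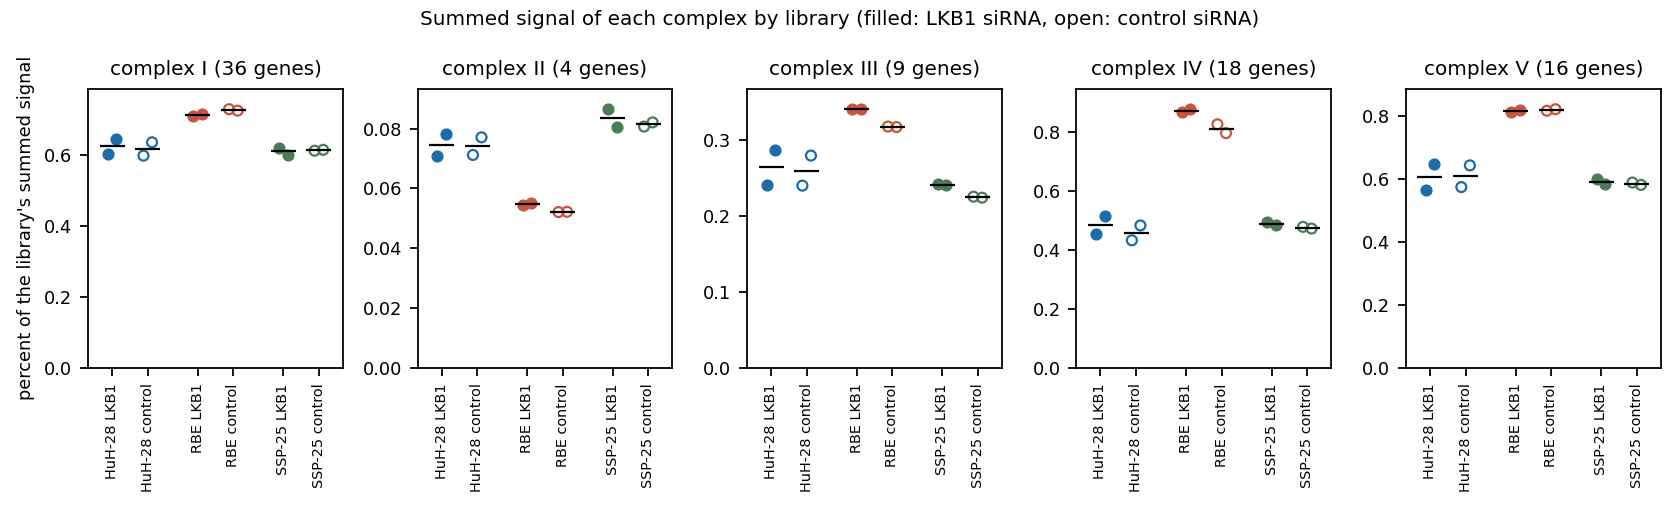
Percent of the summed signal of a library taken by the tested subunits of each complex on the vertical axis, with 1 panel for each complex and a bar at the mean of 2 libraries. Filled points are LKB1 siRNA and open points control siRNA libraries. Complex IV takes the largest share in RBE (0.80 to 0.88%, against 0.43 to 0.52% in the other lines) and complex II takes less there (0.052 to 0.055%) than in the other lines (0.071 to 0.0865%).

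The complexes did not share 1 order of lines. Complex IV took 0.87 to 0.88% of the signal in RBE with LKB1 siRNA and 0.80 to 0.83% with control siRNA, above 0.43 to 0.52% in all libraries of HuH-28 and SSP-25. Complex V took 0.81 to 0.82% in every RBE library, above 0.57 to 0.65% in HuH-28 and 0.58 to 0.60% in SSP-25. Complex II ran the other way, at 0.052 to 0.055% in RBE, 0.071 to 0.078% in HuH-28 and 0.0806 to 0.0865% in SSP-25. Reads shared by near-identical genes may count more than once in these sums. In HuH-28 the libraries of the 2 siRNAs overlapped for each of the complexes. In RBE they overlapped for complex V alone, and in SSP-25 for complexes I, II and V. Complex III took 0.341% with LKB1 siRNA and 0.317 to 0.318% with control siRNA in RBE. In SSP-25 it took 0.241 to 0.242% and 0.224 to 0.226%. Complex IV took 0.4848 to 0.4935% and 0.4725 to 0.4783% in SSP-25. In RBE complex I was lower with LKB1 siRNA (0.7101 to 0.7153% against 0.725 to 0.729%) and complex II higher. These sums were not tested.

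Of the 4 genes of complex II, succinate dehydrogenase, 3 were lower and 1 higher in RBE than in SSP-25 (all genes 37.2% and 35.9%). SDHB had 1083 and 1017 in the control libraries of RBE, against 2920.3 and 2740.5 in SSP-25, a log2 difference of -1.43 ± 0.10 (adjusted p 3.8e-07). SDHD had 981 and 1055 in RBE against 2539 and 2857 in SSP-25 (-1.40 ± 0.15, adjusted p 1.2e-05). Both were thus lower in RBE, as was SDHA, with 1823 and 1678 in RBE against 2724 and 2659 in SSP-25. SDHC went the other way, with 1412 and 1425 in RBE against 1102 and 1109 in SSP-25 (0.36 ± 0.07, adjusted p 0.0012). HuH-28 held the highest SDHA, at 3157 and 3487.

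In complex V the alpha and beta subunits, which form the catalytic hexamer of F1 in equal number, had unlike transcript levels. ATP5A1 had 6191 and 7201 in the control libraries of HuH-28 and 7519 and 7322 in RBE, against 2129 and 2096 in SSP-25. Its log2 differences from SSP-25 were 1.66 ± 0.08 for HuH-28 and 1.81 ± 0.08 for RBE (adjusted p 3.0e-08 and 1.6e-08). ATP5B followed another order, with 22056 and 22464 in RBE, the highest, then 14531 and 14148 in SSP-25 and 8621 and 10334 in HuH-28. The ratio of ATP5A1 to ATP5B was 0.70 to 0.72 for HuH-28, 0.33 to 0.34 for RBE and 0.15 for both control libraries of SSP-25, and 0.14 to 0.16 in SSP-25 with LKB1 siRNA. Of the c subunit genes, ATP5G2 was highest in RBE (5251 and 4998, against 2254 and 3060.4 in HuH-28 and 3064 and 2828 in SSP-25), while ATP5G1 and ATP5G3 were lower in HuH-28 than in both other lines and did not pass between RBE and SSP-25 (adjusted p 0.999 and 0.12).

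**Figure D4:**
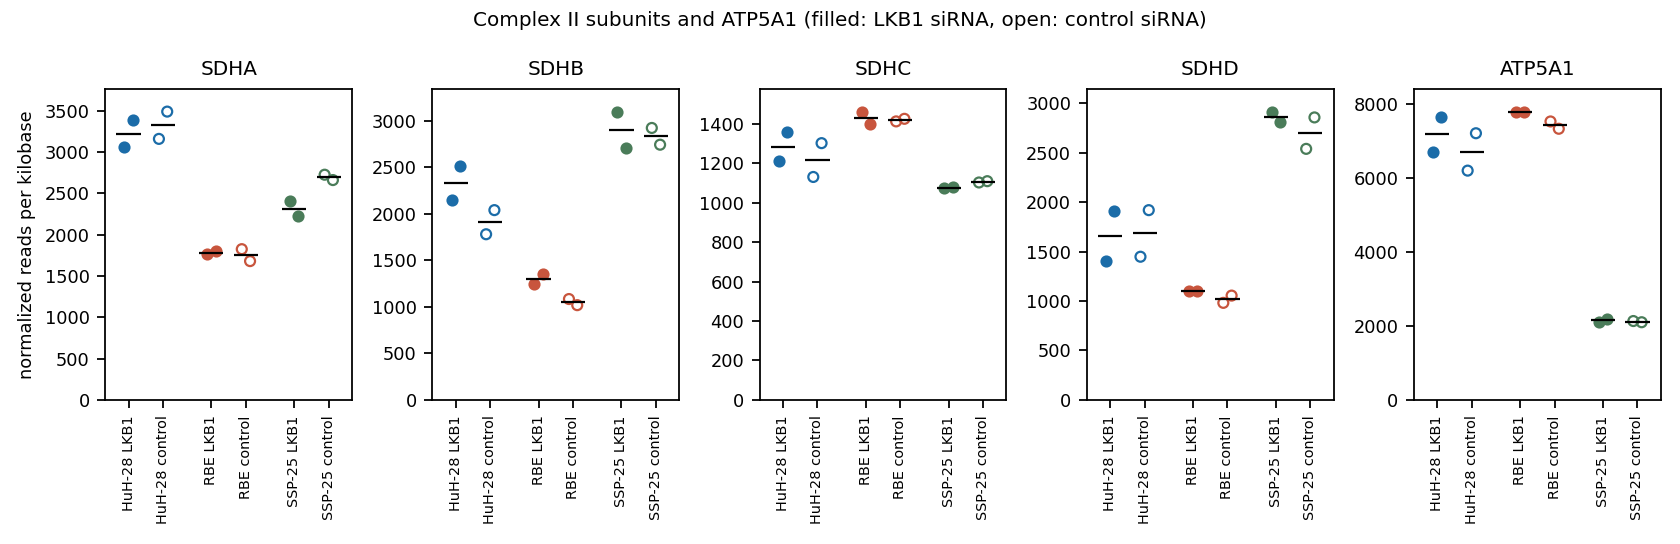
Normalized reads per kilobase on the vertical axis for the 4 genes of complex II and for ATP5A1, with filled points for LKB1 siRNA and open points for control siRNA libraries of each line and a bar at the mean of 2 libraries. SDHB and SDHD are lowest in RBE and highest in SSP-25, while ATP5A1 is lowest in SSP-25 at 2096 to 2193, against 6191 to 7785 in the other lines.

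Complex I differed between lines gene by gene. The largest differences between HuH-28 and RBE were in NDUFA12, with 1616 and 1791 in HuH-28 against 3973 and 4029 in RBE (log2 difference -1.23 ± 0.08, adjusted p 2.2e-07), NDUFS6, a zinc-binding accessory subunit, with 4561 and 5051 in HuH-28 against 2069 and 2065 in RBE (log2 difference 1.22 ± 0.07, adjusted p 7.2e-08), and NDUFA5, at 145 and 174 in HuH-28 against 326 and 349 in RBE (-1.09). Against SSP-25, HuH-28 had more NDUFS4 (1.32), less NDUFA5 (-1.49) and less NDUFB2, at 1929 and 2235 in HuH-28 against 4796 and 5028 in SSP-25 (-1.24 ± 0.10, adjusted p 1.3e-06). Of the 7 catalytic genes, 5 were lower in HuH-28 than in RBE and 1 was higher (all genes 38.1% and 39.2%). In complex III, RBE had more UQCRB, at 1028 and 1014 against 703 and 702 in SSP-25, and UQCRB was the least abundant gene of that complex in the control libraries.

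Of the 18 genes of complex IV tested, 2 were higher and 11 lower in HuH-28 than in RBE (all genes 39.2% and 38.1%), 5 higher and 7 lower in HuH-28 than in SSP-25 (38.0% and 36.8%), and 11 higher and 2 lower in RBE than in SSP-25 (35.9% and 37.2%). The 2 higher than in RBE were the isoforms COX6B2 and COX7B2, and the 5 higher than in SSP-25 include both of them and COX7A1. COX7B2 passed the filter on low values through HuH-28 alone. Of the 12 genes listed as ubiquitous subunits of complex IV, 10 were lower in HuH-28 than in RBE, at a median log2 difference of -0.80, and 9 were higher in RBE than in SSP-25 and 1 lower. COX6A1 had 3812 and 4166 in HuH-28, against 11470.1 and 10406 in RBE (-1.45 ± 0.06, adjusted p 1.1e-08), while SSP-25 had 7018 and 7078. COX4I1, a subunit through which the enzyme is regulated, had 8939.9 and 8182 in RBE, against 4523 and 4540.1 in SSP-25 (0.92 ± 0.10, adjusted p 9.5e-06), and 4182 and 4944 in HuH-28. NDUFA4, once counted with complex I, was lowest in HuH-28, at 965 and 1137 against 2203 and 2133 in RBE. COX6B1 and COX7B were the 2 that did not pass between HuH-28 and RBE.

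The isoforms known from particular tissues were low or near 0 in these cells, apart from COX7B2 in HuH-28. COX7B2, known from testis, had 501 and 635 with LKB1 siRNA and 445 and 523 with control siRNA in HuH-28, while every library of RBE and SSP-25 was at 0.149 or below. It passed the filter on low values through HuH-28 alone, so this difference is given as a description with no test. Its place in the counts between lines above is not read as a result. Even in HuH-28 it reached 0.087 to 0.11 of the value of COX7B, and it did not pass the test with LKB1 siRNA (log2 fold change 0.23 ± 0.24, adjusted p 0.53). NDUFA4L2, known as a gene induced in hypoxia, had 54.5 and 67.5 with LKB1 siRNA and 89.1 and 90.0 with control siRNA in RBE, above all other libraries, the highest of which had 13.5. The 2 siRNAs did not overlap in RBE, but the adjusted p was 0.24. COX7A1, the muscle and heart form, had 5.83 and 6.57 in the control libraries of RBE and 5.60 and 2.77 in HuH-28, against 0.0179 and 0.266 in SSP-25. COX6B2 stood highest in HuH-28 (9.27 and 8.18 with LKB1 siRNA, 4.27 and 3.38 with control siRNA), and COX4I2, COX6A2 and COX8C stayed at or under 5.66 in all libraries. COX6A2, the muscle form, did not reach 1 in 2 libraries and was the 1 member not tested.

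**Figure D5:**
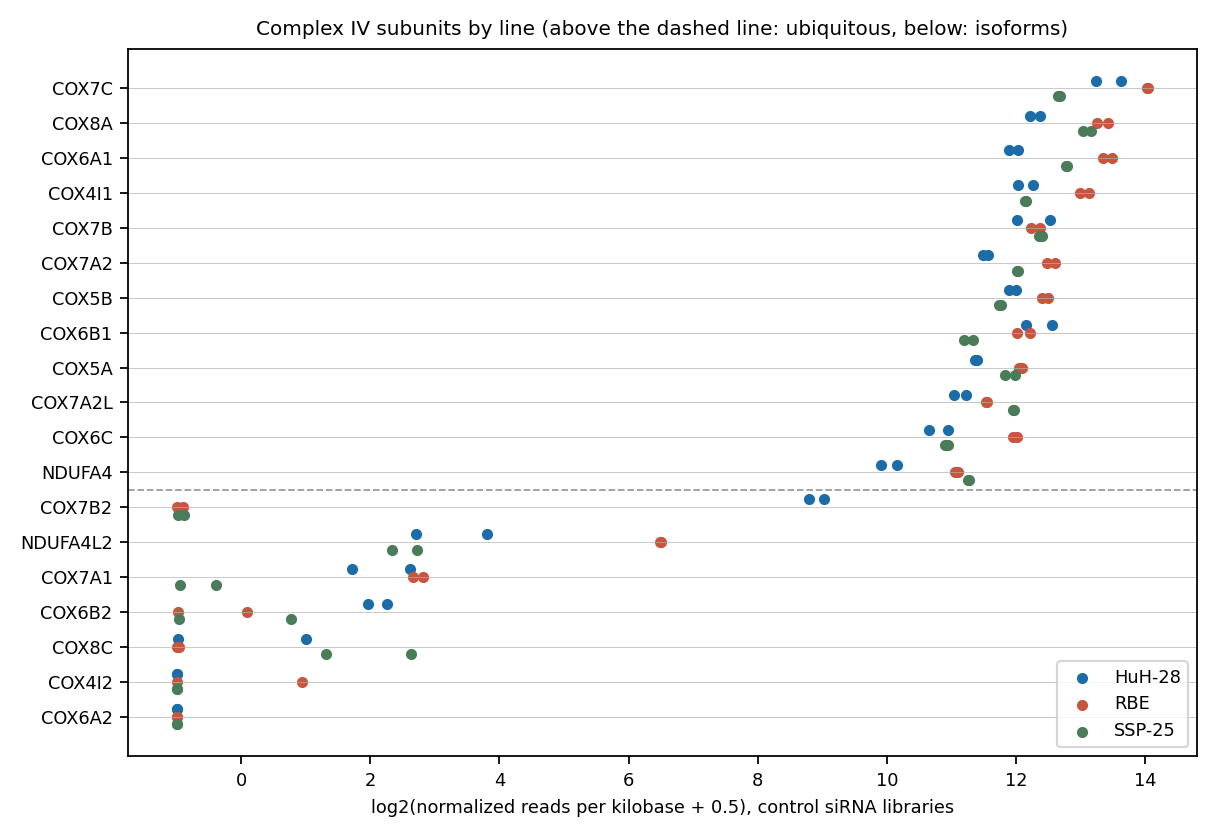
Log2(normalized reads per kilobase + 0.5) on the horizontal axis in the 2 control siRNA libraries of each line for the 19 genes listed with complex IV, with ubiquitous subunits above the dashed line and isoforms below it. RBE points lie to the right of HuH-28 points for most ubiquitous subunits, and COX7B2 stands apart in HuH-28 at 445 and 523 normalized reads per kilobase.

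Of 42 assembly factors tested, averaging the lines gave 8 higher and 21 lower, with a median log2 fold change of -0.13, beside 27.3% and 25.2% of all genes. HuH-28 had 5 of them higher and 13 lower (all genes 14.3% and 15.5%), RBE had 8 and 10 (22.1% and 18.6%), and SSP-25 had 4 and 20 (21.1% each). COA1, a factor for complexes I and IV, had a log2 fold change of -0.59 ± 0.04 on average (adjusted p 6.6e-07), with 313 and 320.0 with LKB1 siRNA and 624 and 559 with control siRNA in RBE. TTC19, a factor for complex III that acts on UQCRFS1 fragments, had -0.37 ± 0.04 on average (adjusted p 2.5e-05), and all 4 complex III factors were lower on average (all genes 25.2%). NDUFAF2, which joins complex I late in assembly, rose in each line, with an average of 0.47 ± 0.04 (adjusted p 2.1e-06), and NDUFAF3 had -0.20 ± 0.03 (adjusted p 4.4e-04). FASTKD2, a mitochondrial RNA-binding protein listed with complex IV, rose by 0.58 (adjusted p 3.6e-06). For complex V, ATPAF2 was higher (0.12, adjusted p 0.031) and ATPAF1 lower (-0.16, adjusted p 0.011), and ACN9, a factor for complex II, was lower (-0.48, adjusted p 0.0032).

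Among 17 genes that regulate the transcription of the nuclear and mitochondrial parts, 6 were higher and 4 lower on average, or 35.3% and 23.5%, near the 27.3% and 25.2% of all genes. TFB1M, the methyltransferase of the mitochondrial small ribosomal RNA, had 219 and 220.2 with LKB1 siRNA and 120.4 and 122 with control siRNA in RBE, and an average log2 fold change of 0.52 ± 0.05 (adjusted p 2.3e-05). GABPB2, a partner of GABPA, was lower in each line, with an average of -0.63 ± 0.06 (adjusted p 9.9e-06). Mitochondrial ribosomal proteins, set beside the subunits as another group of nuclear genes for the same organelle, had 16 higher and 22 lower of 75 on average (21.3% and 29.3%), also near those shares. Cytosolic ribosomal proteins had 46 higher and 1 lower of 86 (53.5% and 1.16%), and their median log2 fold change was 0.25 for HuH-28, 0.30 for RBE and 0.04 for SSP-25. Neither cytochrome c nor cytochrome c1, the carrier and its partner in complex III, passed on average, while CYC1, the gene of cytochrome c1, was higher in HuH-28 alone (log2 fold change 0.24 ± 0.07, adjusted p 0.028).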

How the data were processed

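RNA from 12 libraries, 2 for each siRNA in each of 3 lines, was measured by RNA-seq. The deposited table holds a signal that the authors computed, normalized reads per kilobase for 18815 rows, with no read counts. The submitters' notes name TopHat 1.2.0, edgeR and hg19 or GRCh37, and the study's methods name NextGENe and NCBI Build 36.1, and the sources used here do not say which of them produced it. The study calls the replicate numbers the first and the second test, without saying whether these were separate cultures or whether both siRNAs of a test were handled together, so the main fit has no block and p-values measure the spread between these libraries, which may be technical. With no counts, depth per gene is unknown.

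The first of repeated rows was kept (23 removed), and 28 rows whose symbols had turned into dates stayed in the table and are not named. A gene was tested when 2 or more libraries had a signal of 1 or more (16146 genes, 87 of them members), by limma 3.58.1 in R 4.3.3 on log2(signal + 0.5), fitting the 6 group means, a trended prior and Benjamini-Hochberg adjustment over all of them (6 residual degrees of freedom). A fold change on this scale understates low genes. An exact permutation test of 2 libraries against 2 cannot give a p below 0.33 and was not used. The members and lists were chosen with earlier results of these data known. Genes named are those with the largest changes by line, complex or list, the isoform pairs and STK11, and others (among them NRF1, NDUFS1, NDUFS7, NDUFS8, NDUFV1, UQCRQ and UQCRC1) were chosen after their values were seen. Alternatives covered pseudocount, filter, scaling, trend, replicate block, each line alone and each library left out.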

Additional observations from a re-analysis of the deposited data

Results flagged for a closer look

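The change with LKB1 siRNA differed between the lines for 7 members by limma's test of the interaction, with adjusted p over all 16146 genes. It was 0.0062 for NDUFC2-KCTD14, 0.0084 for COX7A2L, 0.0091 for UQCR11 and 0.016 for ATP5C1. It was 0.037 for COX8C, 0.04 for NDUFS1 and 0.046 for NDUFS8. UQCR11 was higher in both libraries with LKB1 siRNA in HuH-28 and RBE, with log2 fold changes of 0.25 and 0.35, and had -0.16 in SSP-25. COX8C had log2 fold changes of -0.98 for HuH-28, 2.25 for RBE and -1.83 for SSP-25 on signals of at most 5.66.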

How the results depend on the processing

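Counts of members called are given, with 12 in HuH-28, 19 in RBE, 14 in SSP-25, 28 on average over the lines and 7 for the difference between lines in the fit reported. Without the trended prior RBE gave 12 and the difference 4. With each line fitted alone HuH-28 gave 4 and SSP-25 29. The average gave 18 without RBE (8 higher and 10 lower), 17 without SSP-25 (10 and 7) and 37 without HuH-28 (18 and 19), and without HuH-28 the average of NDUFC2-KCTD14 turned to -0.0054. Leaving out single libraries gave 10 to 23 in HuH-28, 11 to 23 in RBE, 7 to 17 in SSP-25, 21 to 40 on average and 3 to 15 for the difference, and 60 to 68, 57 to 65 and 48 to 62 for the control contrasts of HuH-28 minus RBE, HuH-28 minus SSP-25 and RBE minus SSP-25. With each line alone, NDUFA5, NDUFA8 and UQCRFS1 missed the threshold in HuH-28 (adjusted p 0.072, 0.053 and 0.16 in limma). Their log2 fold changes were the same as in the fit reported (1.06, -0.72 and -0.46). Such a fit changes the estimate of spread and the adjustment of p, not the group means. Whether replicate numbers pair the libraries is not settled, since same-numbered deviations correlated at 0.431 for HuH-28, 0.002 for RBE and 0.033 for SSP-25 over all genes, and at 0.642, -0.191 and 0.113 over the members. A replicate block within each line gave 32, 34, 29 and 46 calls in HuH-28, RBE, SSP-25 and on average, and a block shared by the lines gave 14, 21, 15 and 29. Leaving out rows that share reads or name no subunit, an alternative chosen after seeing the data, gave 10, 18, 14 and 26. With 2 libraries a group and no counts, small changes of low genes could not be resolved.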
